A study of Saccharomyces cerevisiae with 11 samples.

Results

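The 10 genes described here encode subunits of the factors that start protein synthesis in the budding yeast Saccharomyces cerevisiae. They were chosen by name for their role, with earlier results of these data known. They are SUI1 for eIF1, SUI2, SUI3 and GCD11 for the chains of eIF2, and PRT1, NIP1, TIF34 and TIF35 for eIF3. The eIF4 genes are TIF1 for the helicase eIF4A and CDC33 for the cap-binding protein eIF4E. All 10 were found among the 7035 features used. To start translation, eIF2 bound to GTP brings the initiator tRNA to the small ribosomal subunit, where eIF1 keeps the start codon choice strict and eIF3 forms a scaffold. The cap-binding protein eIF4E and the RNA helicase eIF4A bring the mRNA, and the exchange factor eIF2B then reloads eIF2 with GTP. Genes of the translation machinery are transcribed heavily in growing yeast, and cells lower many of them together when growth slows.

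RNA-seq of total RNA depleted of ribosomal RNA was made from 11 cultures of a MATa strain of the W303 background in which the chromosomal gene of Scc2, the protein that loads cohesin onto chromosomes, carries a degron (SCC2-AID*-6FLAG). The strain also expresses the plant F-box protein OsTIR1 from the ADH1 promoter at the ura3 locus, and is mutant in TRP1, LEU2, ADE2, CAN1 and HIS3. Every culture, WT included, was kept for 9 h with 1 mM 3-indoleacetic acid, the auxin that has the degron protein destroyed, in medium lacking histidine. The groups differ in a HIS3 plasmid of the pRS413 type, which held SCC2-7MYC with the R787G substitution (3 cultures), SCC2-7MYC with G1242V (3 cultures), no SCC2 (2 cultures, called NULL in the labels and empty vector here) or unmutated SCC2-7MYC (3 cultures, called WT). WT is therefore a degron strain rescued from a plasmid, not an untreated cell. Cultures were harvested over a range of densities, which the labels do not give for each culture. Nor do the labels say whether cultures of a group came from separate transformants, so a p-value measures only the spread between these cultures.

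Values are TPM, a length-corrected share of a library. They were multiplied by 1 factor per library (0.882 to 1.08) set by the typical gene, and are called scaled TPM. Sequencing depth is not known from such values. Differences are log2 ratios of scaled TPM plus a pseudocount of 1, with their standard errors, and a gene was called higher or lower at an adjusted p of at most 0.05 by limma over 6432 features. Log2 differences of this kind understate the change of low genes, but none of the 10 fell under 67.95 scaled TPM.

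SCC2 mRNA was lowest where the plasmid held no SCC2. It had 100.4, 132 and 106 scaled TPM in the R787G cultures, 78.1, 96.9 and 96.4 in the G1242V cultures and 23.9 and 22.5 in the empty vector cultures, against 126, 101 and 108 in the WT cultures. The empty vector libraries lay far below the rest, with a log2 difference from WT of -2.21 ± 0.14. The values sum the degron gene and the plasmid gene, so they do not tell the alleles apart. The a-cell genes STE2, STE6, MFA1, MFA2, BAR1 and AGA2 were present in all 11 libraries, STE2 at 122 to 230.4 scaled TPM. The alpha-cell genes MF(ALPHA)2 and STE3 were at most 1.15 and 7.00 scaled TPM. Other alpha-cell genes stood higher, as MF(ALPHA)1 reached 11.9 and SAG1 ran from 21.1 to 40.0 scaled TPM. In WT the mean of SAG1 was 29.0, above the 21.5 of the a-cell gene BAR1. Ribosomal RNA took 9.20% of the TPM in WT replicate 2 and 0.182% to 0.525% in the other libraries. Correlations of log2 values were 0.984 to 0.996 within groups and 0.916 to 0.984 between groups. Cultures of 1 group did not all stand at the same level for the initiation factors. WT replicate 1 was above the mean of the other WT libraries for all 10 genes, by a median of 0.35 on the log2 scale, while WT replicate 3 was below for all 10, with a median of -0.30. G1242V replicate 3 was below the other G1242V libraries for 9 of the 10, with a median of -0.32 and SUI1 as the exception. The coefficient of variation of the members had a median of 3.10% in R787G, 12.4% in G1242V, 0.840% in the empty vector group and 15.7% in WT. Genes above 50 scaled TPM had 3.42%, 7.79%, 2.31% and 10.04% in the same groups.

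A short sequence element is shown first because 9 of the 10 genes hold it; whether it bears on any difference between the groups was not tested. The letters AAATTTT, the core of the RRPE element found upstream of many yeast ribosome-biogenesis genes, were searched on both strands in the 300 bases before each start codon. They were present for every member except PRT1, which is among the genes with the larger R787G differences given below, and in 24.4% of the 6001 nuclear coding genes and 28.5% of the 137 cytosolic ribosomal protein genes. For each gene the forward match nearest the start codon is printed 5′ to 3′ on the gene's strand, with the match in capitals, from the R64 assembly, which is the sacCer3 sequence.
SUI1: gcgccggcaaaAAATTTTagtttttttttt
SUI2: atcgcatttacAAATTTTcaaccattgttt
SUI3: gacggagtgaaAAATTTTgtaattgcgaga
GCD11: tgccattgaaaAAATTTTcatagaatagcc
NIP1: tcgccgttgaaAAATTTTtcaatgagaaaa
TIF34: ttttttttgtgAAATTTTttccggcctctg
TIF35: taacgaagttaAAATTTTtttctttcactg
TIF1: tagtgactgaaAAATTTTtgcattctcacc
CDC33: ctccgaaaagaAAATTTTtttcgtcgtcaa
The matches begin 123 to 185 bases before the start codon, the nearest in TIF35 and the farthest in CDC33. The printed windows lie at chrXIV:187643-187672 on the minus strand for SUI1, chrX:450879-450908 on the plus strand for SUI2, chrXVI:100339-100368 on the plus strand for SUI3 and chrV:205106-205135 on the plus strand for GCD11. Those of eIF3 lie at chrXIII:895568-895597 for NIP1, chrXIII:558661-558690 for TIF34 and chrIV:1325406-1325435 for TIF35, all on the minus strand. TIF1 has chrXI:554794-554823 on the plus strand and CDC33 chrXV:61191-61220 on the minus strand. AAATTTT reads almost the same on the other strand, so that 8 of the 9 genes hold a pair of matches on opposite strands that overlap with an offset of 1 base; TIF34 is the exception.

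Other elements were less shared. TTACCCG, a core of the site of the general regulatory factor Reb1, was present for SUI1, SUI2, SUI3 and CDC33 and in 7.90% of the promoters searched; these forward and reverse matches are printed because 4 of the 10 genes hold one.
SUI1 reverse: caataacgggtCGGGTAAcagattttttcg
SUI2 forward: agcgttttttcTTACCCGcagtcggagaaa
SUI3 forward: tttccatttcaTTACCCGcagagccggagt
CDC33 forward: ttagagtaataTTACCCGtcaaaaaggtcg
They lie at chrXIV:187675-187704, chrX:450780-450809, chrXVI:100299-100328 and chrXV:61240-61269, each printed on the gene's own strand. CDC33 also holds a reverse match, in the window chrXV:61223-61252, which is not printed. GATGAG, the core of the PAC element that often accompanies RRPE, was present for SUI3 and TIF35, against 19.1% of promoters. TGACTCA, the site of the amino acid starvation activator Gcn4, was in 0 of the 10 and in 2.62% of promoters. The core ACCCNNACA of the ribosomal protein gene activator Rap1 was in 0 of the 10, in 3.12% of promoters and in 16.1% of those of ribosomal protein genes. A match describes the letters only, and its absence says nothing about the factor.

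All 10 genes were higher in R787G cells than in WT cells, 4 were higher in G1242V cells and 4 in cells with the empty vector, and none was lower. The helicase gene TIF1 was the only member higher in all 3. By limma, 36.5% of all features tested were higher and 29.3% lower in R787G, 26.6% higher and 27.3% lower in G1242V, and 36.8% higher and 25.2% lower in the empty vector group, so 4 of 10 in G1242V or with the empty vector is near the background. The median log2 difference over the 10 genes was 0.57 in R787G, 0.35 in G1242V and 0.25 in the empty vector group, where the medians over all features were 0.07, 0.00 and 0.09. The 3 comparisons share the WT libraries and so are not independent. In bulk cultures, fewer cells of a kind, such as 1 stage of the cell cycle, and less RNA per cell cannot be told apart. The 137 cytosolic ribosomal protein genes moved with the same groups, with median log2 differences from WT of 2.57, 2.21 and 1.45. With library factors set without ribosomal protein genes, the medians over the 10 genes were 0.59, 0.37 and 0.26. The part of ribosomal protein genes in the result beyond this scaling was not tested.

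**Figure D1:**
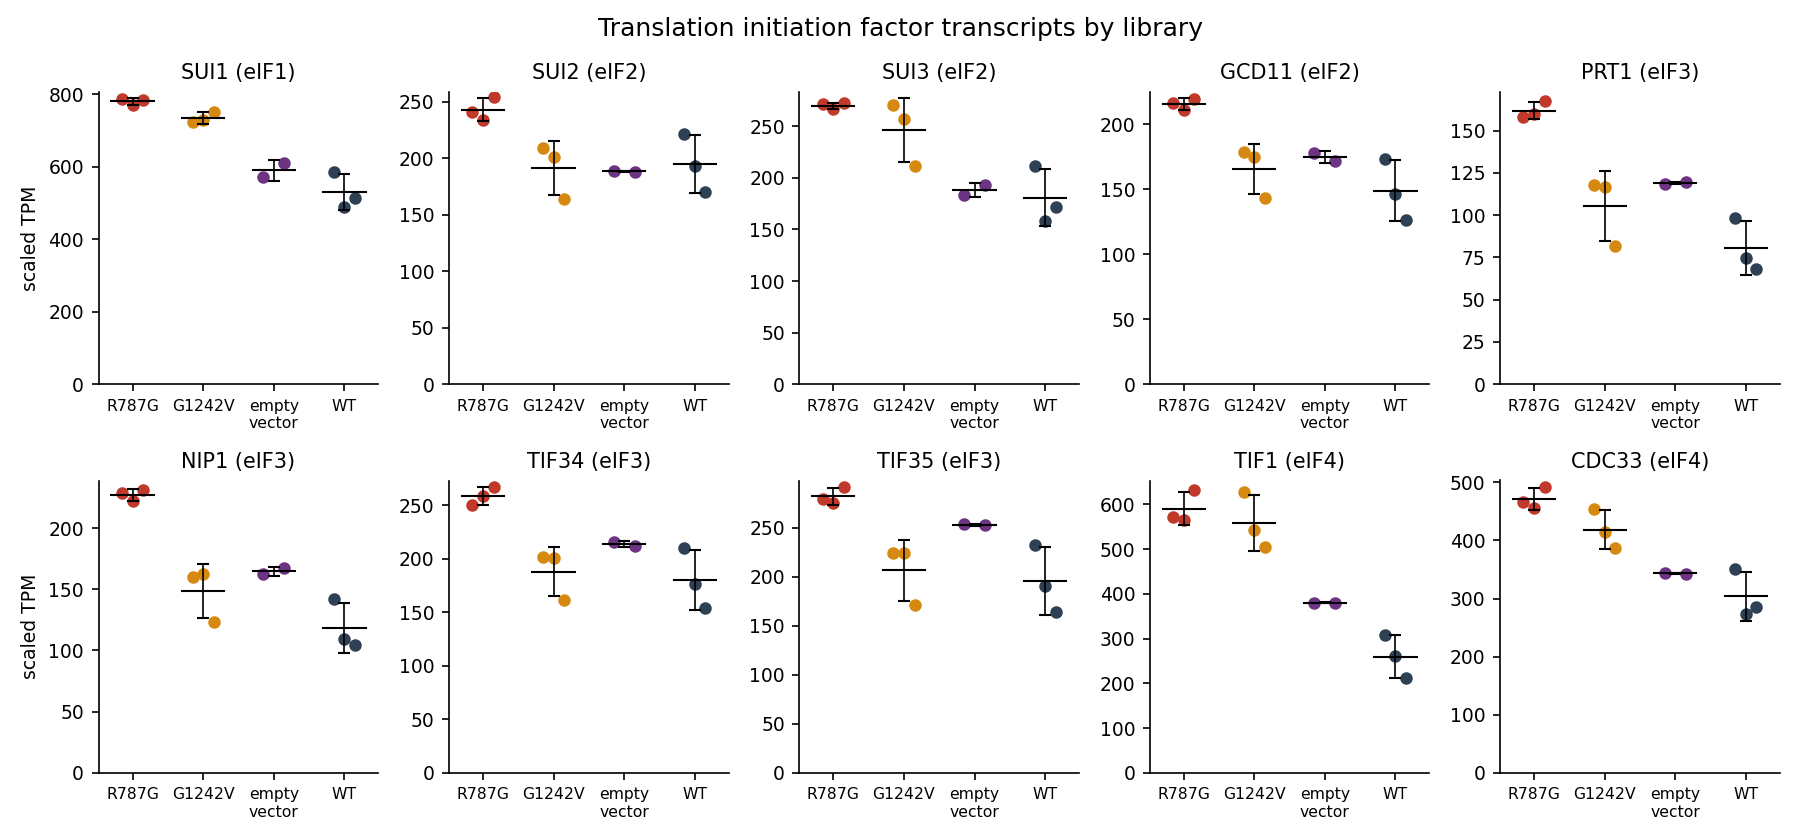
Scaled TPM of the 10 initiation factor genes, 1 panel per gene and 1 point per culture, with the group mean (long line) and SD (error bar), for R787G, G1242V, empty vector and WT. For every gene the 3 R787G points lie above the 3 WT points, while the G1242V points do so for SUI1, SUI3, TIF1 and CDC33.

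Every R787G library was above every WT library for all 10 genes, where 39.5% of features had that pattern and 31.5% the opposite one. The same held in G1242V for 4 genes, where 27.3% of features lay above WT and 27.3% below, and in the empty vector group for 5 genes, against 43.7% above and 30.9% below. None of the 10 had every library of a group below WT. A test of any difference among the 4 groups passed for all 10 genes, with limma's adjusted p from 6.6e-05 for TIF1 to 0.0335 for SUI2, as it did for 86.3% of features.

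SUI1 (YNL244C, chrXIV:187170-187496, minus strand), the eIF1 gene, had 788, 770 and 786 scaled TPM in R787G cells, 723, 729 and 752 in G1242V cells and 571 and 612 in empty vector cells, against 587, 491 and 514 in WT cells. Both mutant groups lay above WT with no overlap, while the empty vector libraries overlapped the highest WT library. The group means were 781 ± 10.1 in R787G, 735 ± 15.5 in G1242V (SD, n = 3 each) and 591 ± 29.02 with the empty vector (n = 2), against 531 ± 50.1 in WT (n = 3). SUI1 rose by a log2 difference of 0.56 ± 0.08 in R787G (limma adjusted p = 1.34e-04) and 0.47 ± 0.08 in G1242V (5.53e-04). The G1242V value missed the threshold after quantile normalization (adjusted p = 0.241). With the empty vector the difference from WT was 0.16 ± 0.09 (adjusted p = 0.129).

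The eIF2 chains differed from each other in how the groups stood. SUI2 (YJR007W, chrX:451020-451934, plus strand) encodes eIF2 alpha, the chain that the kinase Gcn2 phosphorylates in starved cells. It had 240.4, 234 and 254 scaled TPM in R787G cells, 209, 201 and 164 in G1242V cells and 189 and 188 in empty vector cells, against 222, 193 and 170 in WT cells. Only the R787G libraries stood apart from WT, with the smallest difference of the 10 genes in that comparison, 0.32 ± 0.11 (limma adjusted p = 0.0258). It passed in most settings but not after quantile normalization (0.0644) or without R787G replicate 1, R787G replicate 3, WT replicate 2 or WT replicate 3 (0.0544 to 0.0964). The differences of SUI2 were -0.03 ± 0.11 in G1242V (95% interval -0.27 to 0.22) and -0.04 ± 0.12 with the empty vector (-0.32 to 0.24).

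SUI3 (YPL237W, chrXVI:100496-101353, plus strand) encodes eIF2 beta, which holds the GTPase-activating factor eIF5. Its values were 271, 267 and 272 scaled TPM in R787G cells, 270.4, 257 and 211.6 in G1242V cells and 183 and 193 in empty vector cells, against 211.5, 158 and 172 in WT cells. Both mutant groups lay above WT, G1242V replicate 3 by no more than the last digit printed, and the empty vector libraries lay inside the WT range. SUI3 rose by 0.59 ± 0.12 in R787G (limma adjusted p = 0.00130) and 0.45 ± 0.12 in G1242V (0.00813, and 0.0848 after quantile normalization). With the empty vector it differed by 0.07 ± 0.13 (adjusted p = 0.676).

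GCD11 (YER025W, chrV:205251-206834, plus strand) encodes eIF2 gamma, the chain that binds GTP and the initiator tRNA. It had 217, 211 and 219.8 scaled TPM in R787G cells, 179, 175 and 144 in G1242V cells and 178 and 172 in empty vector cells, against 174, 147 and 127 in WT cells. R787G alone was apart from WT, with a rise of 0.54 ± 0.12 (limma adjusted p = 0.00206). The values for G1242V and the empty vector, 0.16 ± 0.12 and 0.24 ± 0.13, did not pass (adjusted p = 0.280 and 0.124).

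The eIF3 genes were all higher in R787G, 0 of the 4 passed in G1242V, and they split by size of change. PRT1 (YOR361C, chrXV:1015361-1017652, minus strand), the eIF3b scaffold subunit, had 158, 160.1 and 168 scaled TPM in R787G cells, 118, 117 and 81.7 in G1242V cells and 119 and 120 in empty vector cells, against 98.5, 74.95 and 67.95 in WT cells. NIP1 (YMR309C, chrXIII:892988-895426, minus strand), the eIF3c subunit that contacts eIF1 and eIF5, had 229, 222 and 232 scaled TPM in R787G cells, 160.3, 162 and 123 in G1242V cells and 162 and 167 in empty vector cells, against 142, 109.5 and 104 in WT cells. In both genes the R787G and the empty vector libraries lay above all WT libraries, while G1242V replicate 3 fell inside the WT range and the other 2 G1242V libraries lay above it. PRT1 rose by 1.02 ± 0.16 in R787G (limma adjusted p = 2.94e-04) and 0.58 ± 0.18 with the empty vector (0.0157), and NIP1 rose by 0.95 ± 0.13 (1.32e-04) and 0.48 ± 0.14 (0.0145). The empty vector calls of both genes rest on 2 cultures, and that of PRT1 was lost without WT replicate 3. Without empty vector replicate 1 or 2, which leaves 1 culture, PRT1 differed from WT by 0.58 or 0.57. NIP1 differed by 0.51 or 0.46 in the same fits. In G1242V the differences were 0.38 ± 0.16 for PRT1 and 0.33 ± 0.13 for NIP1 (adjusted p = 0.0624 and 0.0561), and both passed without G1242V replicate 3, at 0.55 (0.00591) and 0.45 (0.00885), and without WT replicate 1, at 0.54 (0.0125) and 0.46 (0.00803). NIP1 also passed with library factors set without ribosomal protein genes (0.0465).

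TIF34 (YMR146C, chrXIII:557481-558524, minus strand), the eIF3i subunit, had 250.5, 259 and 267 scaled TPM in R787G cells, 202, 200.4 and 161 in G1242V cells and 216 and 212 in empty vector cells, against 209.8, 176 and 154 in WT cells. TIF35 (YDR429C, chrIV:1324477-1325301, minus strand), the eIF3g subunit with an RNA-binding domain, had 279.5, 275 and 292 scaled TPM in R787G cells, 224.5, 224 and 171 in G1242V cells and 254 and 253 in empty vector cells, against 232, 191 and 164 in WT cells. For both genes R787G and the empty vector lay above WT, TIF34 with the empty vector by a narrow margin, and G1242V overlapped it. In R787G TIF34 rose by 0.53 ± 0.12 and TIF35 by 0.54 ± 0.13 (limma adjusted p = 0.00261 and 0.00517). With the empty vector TIF35 passed at 0.39 ± 0.15 (0.0464), and TIF34 differed by 0.26 ± 0.13 (0.112). The TIF35 call was lost with most of the libraries left out in turn and in several other fits. With both empty vector libraries kept, its limma adjusted p was up to 0.136. G1242V differed from WT by 0.07 ± 0.12 in TIF34 and 0.08 ± 0.13 in TIF35, with 95% intervals of -0.20 to 0.33 and -0.22 to 0.38.

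TIF1 (YKR059W, chrXI:554987-556174, plus strand) is 1 of the pair of genes for the helicase eIF4A. It had 573, 566 and 632 scaled TPM in R787G cells, 628, 543 and 505 in G1242V cells and 381 and 379 in empty vector cells, against 308, 261 and 211 in WT cells. Every library of the 3 groups lay above every WT library. TIF1 rose by 1.20 ± 0.13 in R787G (limma adjusted p = 3.3e-05), 1.11 ± 0.13 in G1242V (7.6e-05) and 0.56 ± 0.15 with the empty vector (0.00721).

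The values of TIF1 depend on how its reads were told from those of TIF2 (YJL138C, chrX:153504-154691, minus strand), the other eIF4A gene. Their coding sequences of 1188 bases differ at 6 positions, an identity of 99.5%, and 15.1% of the 50-base stretches of either gene are unique in the genome, against 100% for the other 9 members. Coding bases 196 to 255 are shown because 2 of the 6 differences, in capitals, lie there.
TIF1: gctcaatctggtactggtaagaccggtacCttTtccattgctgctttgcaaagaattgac
TIF2: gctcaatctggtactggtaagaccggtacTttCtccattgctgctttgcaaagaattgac
TIF2 had 693, 721 and 746 scaled TPM in R787G cells, 654, 582 and 498 in G1242V cells and 530.1 and 527 in empty vector cells, against 477, 406 and 372 in WT cells. The sum of both genes, which does not depend on the split of shared reads between them, was 1266, 1287 and 1378 scaled TPM in R787G cells, 1281, 1126 and 1003 in G1242V cells and 911 and 906 in empty vector cells, against 784, 666 and 583 in WT cells. Summed, eIF4A mRNA rose in all 3 groups, by 0.96 (limma adjusted p = 7.68e-05), 0.75 (5.19e-04) and 0.43 (0.0177). TIF1 made up 45.2%, 44.0% and 45.9% of the sum in R787G cells, 49.0%, 48.3% and 50.3% in G1242V cells and 41.8% and 41.9% in empty vector cells, against 39.2%, 39.1% and 36.2% in WT cells. The groups did not overlap in this share, which does rest on the split.

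CDC33 (YOL139C, chrXV:60383-61024, minus strand) encodes eIF4E, the protein that binds the mRNA cap. It had 467, 456 and 492 scaled TPM in R787G cells, 454, 415 and 387 in G1242V cells and 345 and 343 in empty vector cells, against 351, 274 and 286 in WT cells. Both mutant groups lay above WT, and the empty vector libraries sat just under the highest WT library. CDC33 rose by 0.64 ± 0.10 in R787G (limma adjusted p = 2.85e-04) and 0.47 ± 0.10 in G1242V (0.00268, and 0.160 after quantile normalization). With the empty vector the difference was 0.19 ± 0.11 (adjusted p = 0.164).

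**Figure D2:**
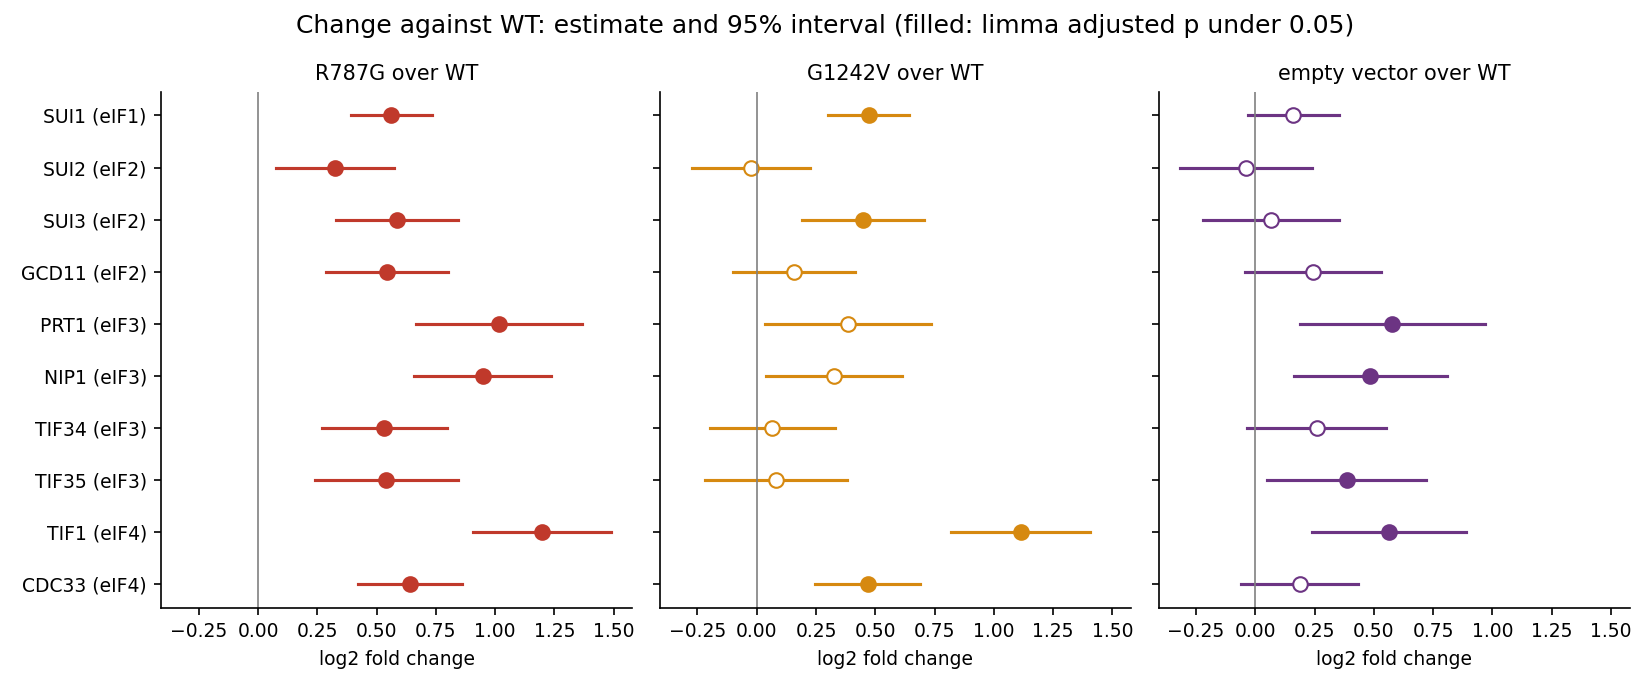
Log2 difference from WT of each of the 10 genes in R787G, G1242V and empty vector cells, with 95% confidence intervals from limma; filled points passed an adjusted p of 0.05. All R787G points are filled and lie between 0.32 and 1.20, while in G1242V the filled points are SUI1, SUI3, TIF1 and CDC33.

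None of the 10 genes overlaps another annotated gene, and each has an unbroken coding sequence. The typical gene on the 8 chromosomes that hold them stood within -0.06 to 0.11 of the WT mean on the log2 scale in every library.

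Leaving WT aside, 6 of the 10 genes were higher in R787G than in G1242V (26.3% of features higher, 19.9% lower) and 0 were lower. These were GCD11, SUI2 and the eIF3 genes. NIP1 differed by 0.62 ± 0.13 (limma adjusted p = 0.00395) and PRT1 by 0.63 ± 0.16 (0.00929). TIF34 differed by 0.47 ± 0.12 (0.00999), TIF35 by 0.46 ± 0.13 (0.0194), GCD11 by 0.39 ± 0.12 (0.0208) and SUI2 by 0.35 ± 0.11 (0.0274). For TIF1, SUI1, SUI3 and CDC33, the genes that were also higher in G1242V than in WT, the differences were 0.08, 0.09, 0.14 and 0.17 (adjusted p from 0.172 to 0.621). Of these, CDC33 passed with TPM as deposited, coding genes and quantile normalization, at 0.30, 0.28 and 0.34 (adjusted p = 0.0266, 0.0239 and 0.0121), and SUI1 passed with TPM as deposited, at 0.21 (0.0414). The count of 6 became 3 without R787G replicate 3 or without G1242V replicate 3. In 8 genes every R787G library lay above every G1242V library, where 35.2% of features did so and 27.8% did the opposite.

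R787G was higher than the empty vector in 6 genes and lower in 0 (16.9% and 23.0% of features). TIF1 differed by 0.63 ± 0.15 (limma adjusted p = 0.00808), SUI3 by 0.52 ± 0.13 (0.0110), NIP1 by 0.46 ± 0.14 (0.0290), CDC33 by 0.45 ± 0.11 (0.0101), SUI1 by 0.40 ± 0.09 (0.00574) and SUI2 by 0.36 ± 0.12 (0.0413). Every R787G library lay above both empty vector libraries for all 10 genes, as for 34.7% of features, with 44.1% below. This comparison depended on scaling, since the count was 1 with rescaling to nuclear coding genes and 0 with quantile normalization. When only these groups were fitted, all 10 genes passed, but the features called also rose, from 2564 to 4103 of 6432. Of those 4103, 44.3% were higher. With only 2 empty vector cultures, leaving out either leaves 1, so calls from such fits are not given here. The members' median log2 difference was 0.42 with both, 0.40 without replicate 1 and 0.45 without replicate 2.

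G1242V was higher than the empty vector in TIF1, SUI3, SUI1 and CDC33, by 0.55, 0.38, 0.31 and 0.28 (limma adjusted p = 0.00824, 0.0255, 0.00950 and 0.0469), and lower in 0 genes (25.6% and 37.4% of features). The eIF3 genes and GCD11 had differences of -0.30 to -0.09 that did not pass. Libraries lay above in 4 genes and below in 3, against 33.0% and 46.0% of features. The count of 4 was 2 without G1242V replicate 1 or 2. Without empty vector replicate 1 or 2, which leaves 1 culture, the members' median was -0.02 or -0.05. The sum of TIF1 and TIF2 differed by 0.32 and did not pass (adjusted p = 0.0626). The calls of this comparison depended on the scaling. With TPM as deposited 0 of the 10 were higher and 5 lower, with rescaling to nuclear coding genes 0 were higher and 6 lower, and with quantile normalization 0 were higher and 5 lower. The members' median was -0.04 as scaled and -0.29, -0.37 and -0.31 in those settings, where the median over all features was -0.09 as scaled and -0.34, -0.42 and -0.0038. Between empty vector and WT the members called higher were 4 as scaled, 8 as deposited, 9 with coding genes and 8 with quantile normalization. The members' medians were 0.25, 0.48, 0.52 and 0.41, and the medians over all features were 0.09, 0.31, 0.35 and -9.17e-04.

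**Figure D3:**
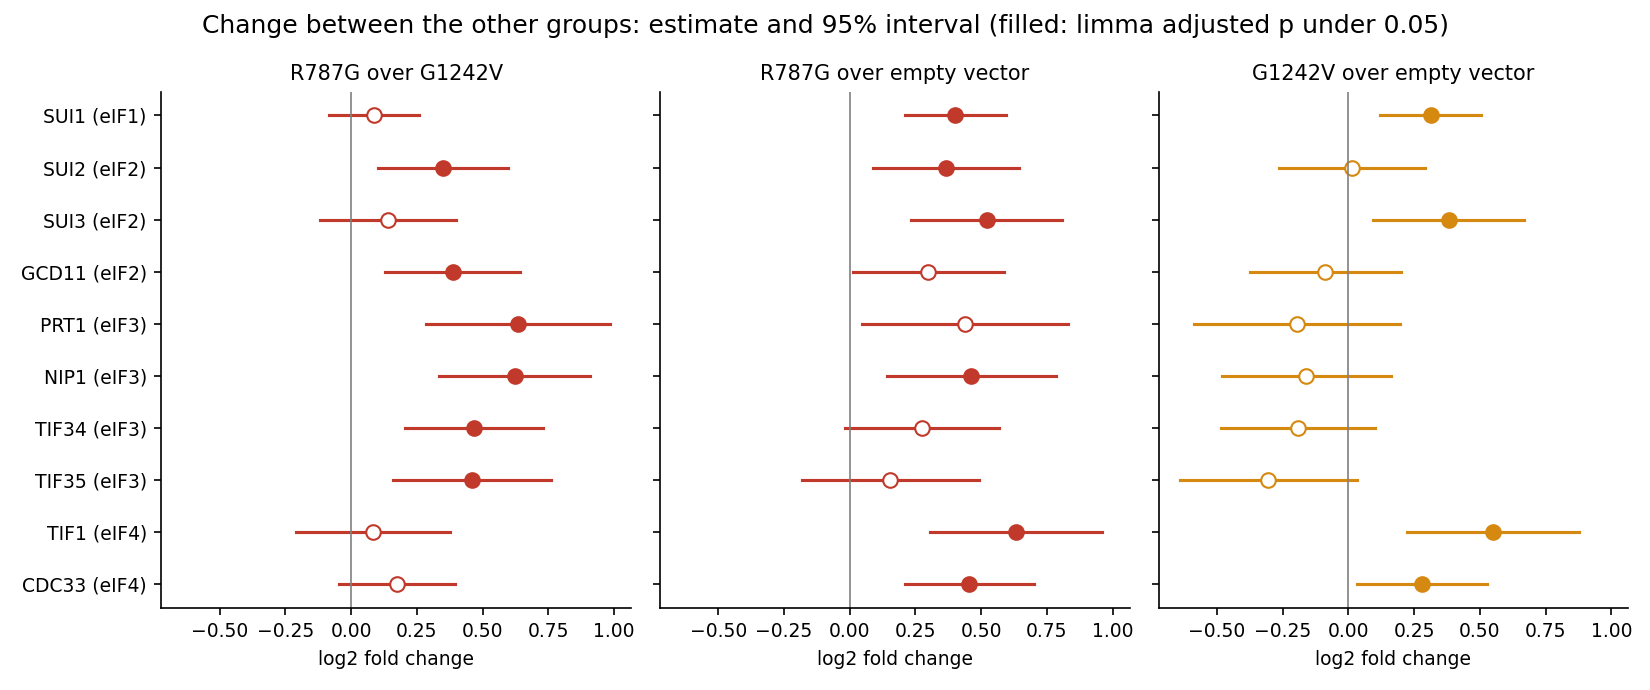
Log2 differences of the 10 genes between R787G and G1242V, R787G and empty vector, and G1242V and empty vector, with 95% confidence intervals from limma; filled points passed an adjusted p of 0.05. GCD11, SUI2 and the eIF3 genes are filled in the first comparison, while TIF1, SUI1, SUI3 and CDC33 are filled in the last.

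Ratios of 2 members within a library are free of the library factor. How often the ratios of other gene pairs lie apart from WT was not counted, so these are descriptions only. PRT1 stood at 0.626 of TIF34 in R787G (range 0.619 to 0.630), 0.557 in G1242V (0.506 to 0.584) and 0.558 with the empty vector (0.551 to 0.564), against 0.445 in WT (0.425 to 0.469). NIP1 stood at 0.806 of TIF35 in R787G, 0.719 in G1242V and 0.651 with the empty vector (0.639 to 0.662), against 0.607 in WT (0.574 to 0.638). Each library of the 3 groups was above each WT library in both ratios, as in PRT1 over TIF35 and NIP1 over TIF34. Among PRT1, NIP1, TIF34 and TIF35, TIF35 was the highest and PRT1 the lowest in all 11 libraries. Other eIF3 genes were not part of this order. The highest of these members over the lowest came to 1.72 to 1.77 in R787G, 1.90 to 2.09 in G1242V and 2.11 to 2.14 with the empty vector, against 2.36 to 2.55 in WT. PRT1 over NIP1, the larger subunits that bind each other, was steadier, at 0.712, 0.706 and 0.723, against 0.677 in WT, with overlap in both mutant groups and both empty vector libraries above WT.

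Ratios between the eIF2 chains and between the eIF4 genes are given in the same way. SUI2 over GCD11 was 1.13 in R787G, 1.16 in G1242V and 1.08 with the empty vector, against 1.31 in WT (1.28 to 1.34), with every library of the 3 groups under WT. SUI3 over GCD11 was 1.49 in G1242V (1.47 to 1.51), above the WT range of 1.08 to 1.36 with a mean of 1.22, and overlapped WT in R787G at 1.25 and with the empty vector at 1.07. GCD11 was the lowest of them in all 11 libraries. TIF1 over CDC33 was 1.25 in R787G, 1.33 in G1242V and 1.11 with the empty vector, against 0.856 in WT, with no overlap.

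**Figure D4:**
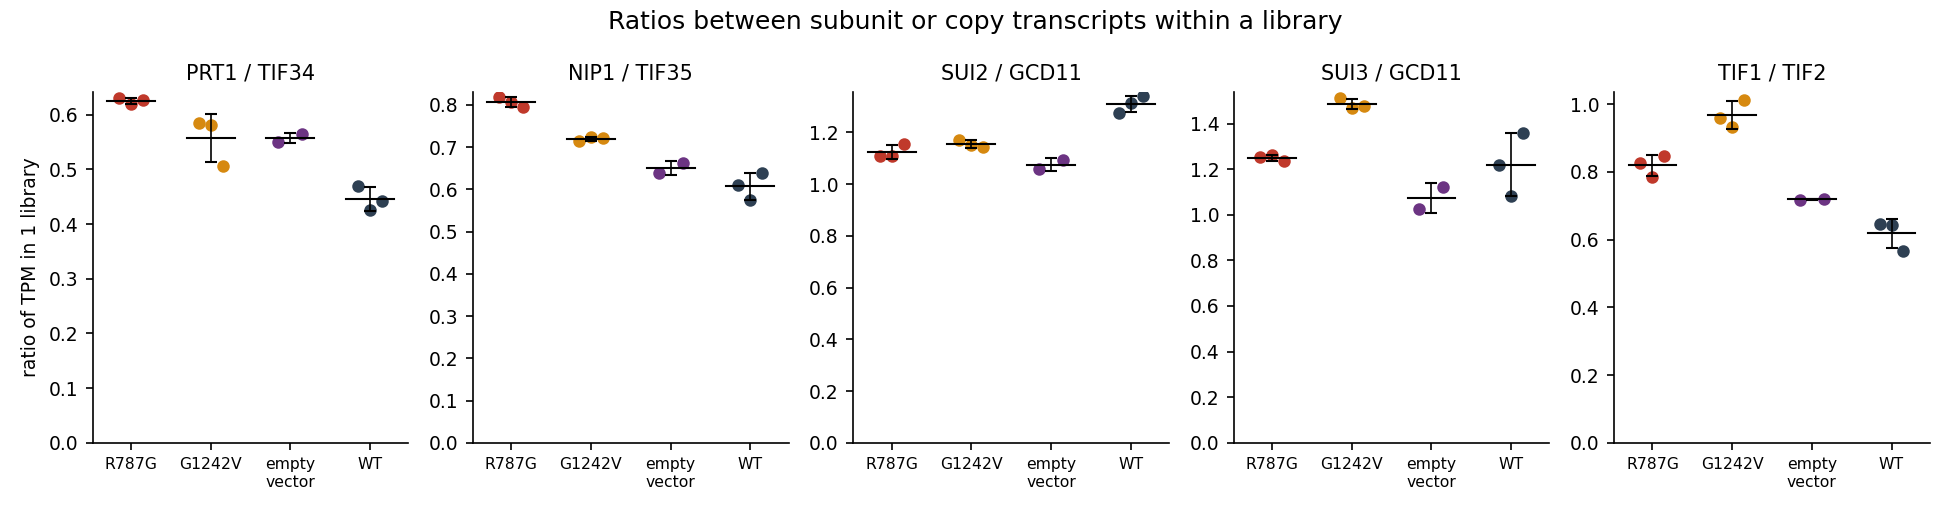
Ratios of scaled TPM between pairs of initiation factor genes in each library, 1 point per culture, with the group mean (long line) and SD (error bar), for R787G, G1242V, empty vector and WT. PRT1 over TIF34, NIP1 over TIF35 and TIF1 over TIF2 lie above WT in all 3 groups, SUI2 over GCD11 lies below, and SUI3 over GCD11 is above WT in G1242V.

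By mean level, SUI1 was the highest and PRT1 the lowest member in all 4 groups. TIF1 was the second highest in R787G, G1242V and empty vector cells, with libraries apart from CDC33, the next. In WT CDC33 was the second and TIF1 the next, and their libraries overlapped. Every neighbour in the WT order from CDC33 down to NIP1 overlapped the next, through TIF35, SUI2, SUI3, TIF34 and GCD11, so that only SUI1 at the top and PRT1 at the bottom stood clear. In R787G only SUI3, TIF34 and SUI2 overlapped their neighbours. The members lay between the 85.3 and 97.2 percentiles of all levels in R787G, 76.5 and 96.7 in G1242V and 81.2 and 97.5 with the empty vector, against 70.1 and 96.3 in WT.

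Over the 11 libraries, which fall in 4 groups, Pearson correlations between members' log2 levels ran from 0.51 for SUI1 with TIF35 to 0.995 for PRT1 with NIP1. Other features were then ranked by likeness to the members. Left out of this ranking were the 137 cytosolic ribosomal protein genes and the 30 further genes of initiation, its control, termination and recycling given below. Among the 6255 features ranked, the genes whose pattern was most like the mean of the 10 were WRS1 (r = 0.989) and GLN4 (0.986), the tryptophanyl- and glutaminyl-tRNA synthetase genes, with PFF1 (0.987), SRM1 (0.986), which encodes the nucleotide exchange factor of the nuclear transport GTPase Ran, and MYG1 (0.982). The closest to eIF1 was TMA19 (0.974), to eIF2 WRS1 (0.994), to eIF3 NOP58 (0.995), a core protein of box C/D snoRNPs, and to eIF4 SES1 (0.996), the seryl-tRNA synthetase gene. Ribosomal protein genes had a median r of 0.851.

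The other 30 genes of initiation, its control, termination and recycling stood as follows. In R787G 20 were higher and 2 lower than WT, in G1242V 5 were higher and 7 lower, and with the empty vector 11 were higher and 2 lower. Over all features the shares were 36.5% higher and 29.3% lower in R787G, 26.6% and 27.3% in G1242V, and 36.8% and 25.2% with the empty vector, so the 11 of 30 higher with the empty vector is at the background. Their median log2 differences were 0.43, 0.04 and 0.27. The count of 5 became 12 without G1242V replicate 3 and 11 without WT replicate 1, that of 11 with the empty vector became 20 with TPM as deposited, and the 2 lower in R787G became 4 without WT replicate 3, as did the 2 lower with the empty vector. Of the 10 further subunits, 8 rose in R787G and 3 each in G1242V and with the empty vector. TIF11, which encodes eIF1A, the partner of eIF1 in scanning, had 443, 432 and 469.6 scaled TPM in R787G cells, 462, 421 and 377 in G1242V cells and 306 and 318 in empty vector cells, against 229, 182 and 188 in WT cells. It lay above WT in every library and rose by 1.17 ± 0.10, 1.07 ± 0.10 and 0.65 ± 0.11 (limma adjusted p = 7.74e-06, 1.99e-05 and 7.66e-04). RPG1, the eIF3a gene, rose by 0.80 ± 0.16 in R787G (0.00126), TIF4632, 1 of the eIF4G genes, by 0.28 in G1242V, and TIF3, the eIF4B gene, by 0.48 with the empty vector (0.0228). FUN12, the eIF5B gene on chromosome I, ranged from 138 in G1242V replicate 3 to 353 in WT replicate 1, and the typical gene of that chromosome ranged from -0.54 to 0.47 on the log2 scale over the libraries.

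Of the 10 genes of eIF2B and eIF2 control, 6 rose in R787G, 6 rose with the empty vector, and 1 rose and 3 fell in G1242V. Over all features 36.5% rose in R787G, 36.8% rose with the empty vector, and 26.6% rose and 27.3% fell in G1242V. The 3 of 10 that fell in G1242V are therefore near the background. GCN20, which acts with Gcn1 to activate the kinase Gcn2, rose in all 3 groups, by 0.70 ± 0.08, 0.31 ± 0.08 and 0.63 ± 0.09 (limma adjusted p = 3.52e-05, 0.00679 and 1.65e-04). GCD1, the eIF2B gamma gene, fell by 0.52 and CDC123, whose product assembles eIF2, fell by 0.69 in G1242V (0.00207 and 2.92e-04). GCD2, the eIF2B delta gene, rose by 0.54 in R787G and 0.59 with the empty vector, GCN1 by 0.57 in R787G and GCD6, the eIF2B epsilon gene, by 0.47 with the empty vector. GCN4, whose mRNA is translated when eIF2 is limiting, passed in no comparison with WT and differed by 0.21 in R787G (adjusted p = 0.0518).

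The 4 genes of cap regulators and helicases moved in opposite directions. CAF20, which encodes a protein that holds eIF4E away from eIF4G, had 281, 289 and 295 scaled TPM in R787G cells, 251, 239 and 194 in G1242V cells and 234 and 228 in empty vector cells, against 169, 160.1 and 131 in WT cells. It rose by 0.91 ± 0.11, 0.57 ± 0.11 and 0.60 ± 0.13 (limma adjusted p = 7.08e-05, 0.00190 and 0.00237). DBP1, a helicase gene related to DED1, had 12.5, 12.2 and 11.2 scaled TPM in R787G cells, 9.00, 10.5 and 10.5 in G1242V cells and 16.4 and 17.2 in empty vector cells, against 27.9, 35.9 and 27.7 in WT cells. It was under every WT library in all 3 groups and fell by 1.27, 1.51 and 0.81 (5.03e-06, 3.94e-06 and 2.08e-04). DED1, the main helicase for scanning, fell by 0.53 in G1242V (0.0032), and EAP1, another eIF4E-binding protein gene, fell by 0.29 in R787G (0.00599) and 0.32 in G1242V (0.00446).

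Of the 6 genes of termination and recycling, 5 rose in R787G, led by RLI1, which splits ribosomes after termination, at 1.00 ± 0.15 (limma adjusted p = 2.47e-04). SUP45, the release factor eRF1 gene, rose by 0.69 and TMA20 by 0.52. In G1242V TMA22 fell by 0.24 (0.0214), while RLI1 and SUP45 had differences of 0.34 and 0.32 that did not pass (0.0799 and 0.0588), and with the empty vector TMA64 rose by 0.42 (9.59e-04) while TMA22 fell by 0.33 (0.00638). Among 9 elongation factor genes, 7 rose and 1 fell in R787G, 5 rose in G1242V, and 1 rose and 1 fell with the empty vector. Their medians were 0.86, 0.52 and 0.01. Beside both lists, 36.5% of all features were higher and 29.3% lower in R787G. The shares were 26.6% and 27.3% in G1242V, and 36.8% and 25.2% with the empty vector.

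**Figure D5:**
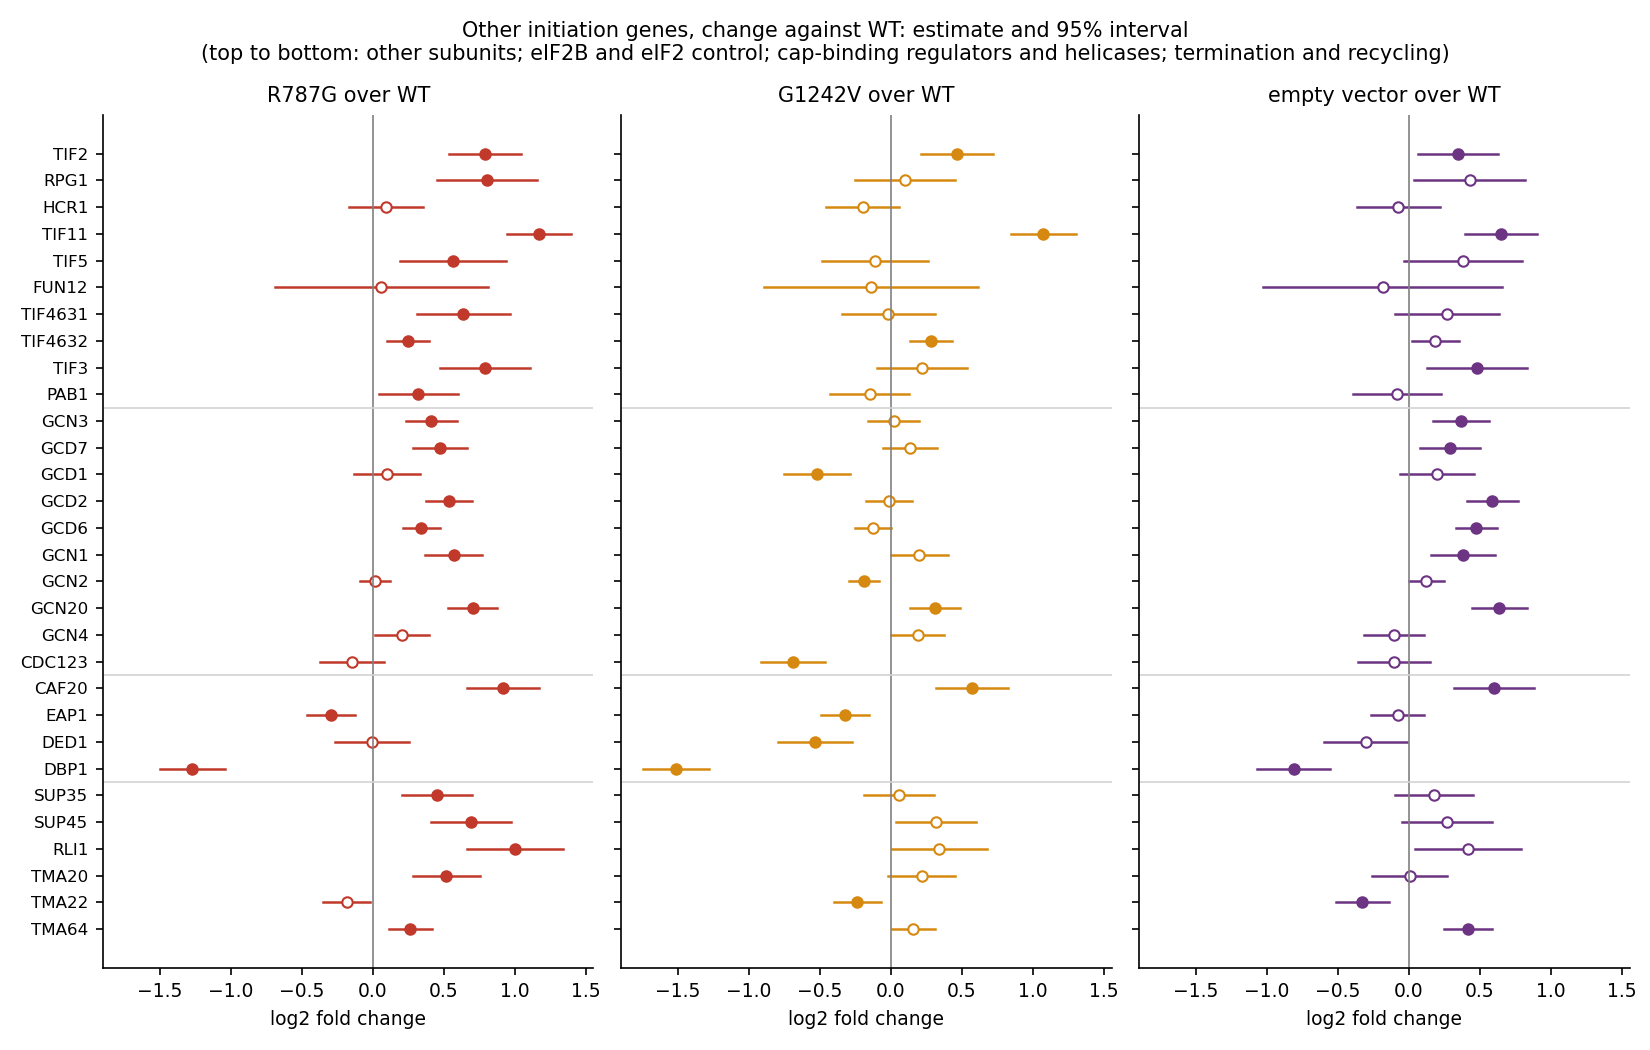
Log2 differences from WT of the other initiation, control, cap regulator, and termination and recycling genes in R787G, G1242V and empty vector cells, with 95% confidence intervals; filled points passed an adjusted p of 0.05 by limma. TIF11 and CAF20 lie to the right in all 3 groups and DBP1 lies to the left at -1.27, -1.51 and -0.81.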

How the data were processed

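Libraries were demultiplexed with bcl2fastq 2.17, aligned with STAR to sacCer3 and quantified with RSEM, and edgeR was used, per the submitters' processing notes. Total RNA had been depleted of ribosomal RNA and made into stranded libraries read as 50-base single reads, per the labels' protocols. No source used here names the annotation, the strand setting of the quantification or the remaining versions. The deposited values are TPM computed by the authors, with no counts, so depth and counting error are unknown. From 7036 features, 1 with shifted columns was left out; 5955 IDs matched R64 locus tags and 41 matched symbols. Library factors were medians of ratios over 5221 features with at least 10 TPM in every library. A feature entered the test if 2 or more libraries had at least 1 TPM. The test was limma 3.58.1 (R 4.3.3) with a mean-variance trend, fitted once to all 4 groups on the log2 of scaled TPM plus 1, with 7 residual degrees of freedom and Benjamini-Hochberg adjustment. The code was tested on simulated data. Sequences come from the RefSeq R64 assembly, read with Python 3.11.15. The members and gene lists were chosen with earlier results of these data known. Other genes named are TIF2, up to 3 passing genes per list and comparison with the largest differences, and the 5 closest patterns; FUN12 and GCN4 were named after their values were seen. Alternatives were other scalings, filters, pseudocounts, fits and leaving out each library.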

Additional observations from a re-analysis of the deposited data

How the results depend on the processing

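Between R787G and WT all 10 genes stayed higher in every setting except quantile normalization and some left-out libraries, where 9 to 10 passed. The cause of the changes below was not tested. Fits without 1 empty vector library leave 1 culture in that group, so nothing is read from their counts of calls against it. Such counts appear below only as the low ends of the left-out ranges for R787G against empty vector. Both low ends come from the fit without empty vector replicate 1. Members higher in G1242V than empty vector numbered 0 under TPM as deposited, rescaling to nuclear coding genes and quantile normalization. In those settings 5, 6 and 5 were lower. Of all features called there, 20.7%, 16.4% and 48.3% were higher, against 40.6% as scaled. Without G1242V replicate 1 or 2 the higher members numbered 2. Members higher with the empty vector than in WT numbered 8, 9 and 8 in those 3 scalings. Of all features called in this comparison, 78.3%, 80.7% and 51.3% were higher, against 59.3% as scaled. The members higher numbered 2 without WT replicate 3 and 8 without WT replicate 1. Members higher in G1242V than WT numbered 1 after quantile normalization. Members higher in R787G than G1242V numbered 3 to 6 with 1 library left out. Members higher in R787G than empty vector numbered 1 with coding genes, 0 with quantile normalization, 10 when only these groups were fitted and 0 to 8 with 1 left out; features called in that comparison were 2564, 4103 when only these groups were fitted and 1098 to 2879. The other initiation genes higher with the empty vector than WT numbered 20, 20 and 17 in the 3 scalings. The lower ones numbered 1, 1 and 1, and 4 without WT replicate 3. In G1242V 5 to 12 were higher with 1 library left out. In R787G 4 were lower with chromosome centring and 2 to 4 with 1 left out. Some differences changed sign, listed as TPM as deposited, coding genes and quantile where each applies. Not all of them were small as scaled. SUI1 was called higher in G1242V than empty vector as scaled, at 0.31 (limma adjusted p = 0.00950), and lower after quantile normalization (0.0357). As scaled, R787G minus empty vector was 0.40 for SUI1 (0.00574), and G1242V minus empty vector was 0.28 for CDC33 (0.0469). G1242V minus empty vector was -0.24, -0.32 and -0.29 for SUI2 and -0.14, -0.22 and -0.44 for TIF2, and with coding genes and quantile -0.058 and -0.16 for CDC33 and -0.025 and -0.29 for SUI1. Empty vector minus WT was 0.19, 0.23 and 0.071 for SUI2. Under quantile, R787G minus empty vector was -0.11 for SUI1 and -0.031 for TIF2; TIF35 was -0.079 with coding genes and -0.062 under quantile. G1242V minus WT was -0.0046 and -0.11 for TIF34 with coding genes and quantile and -0.11 for TIF35 under quantile. With 1 library left out, G1242V minus empty vector ran from -0.14 to 0.014 for GCD11 and -0.048 to 0.12 for SUI2, G1242V minus WT from -0.13 to 0.080 for SUI2, -0.048 to 0.18 for TIF34 and -0.046 to 0.21 for TIF35, and empty vector minus WT from -0.14 to 0.056 for SUI2 and -0.027 to 0.18 for SUI3. With the replicate number as a replicate block, members higher than WT numbered 10 in R787G, 6 in G1242V, where PRT1 and NIP1 were added (adjusted p = 0.0383 and 0.0375), and 3 with the empty vector. After each group's mean was subtracted, same-numbered cultures of different groups correlated by -0.16 to 0.27 and differently numbered ones by -0.38 to 0.30. The numbers are therefore not taken as pairs. Depth is unknown, so what it limits cannot be stated.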
